A study of Homo sapiens with 9 samples.

Results

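Molecular chaperone genes were followed in SMS-KCNR cells, an established human neuroblastoma line grown with fetal bovine serum, by the compartment in which their proteins work. The genes were chosen by symbol: all those of the HSPA, HSPB, HSPD, HSPE, HSPH, HSP90, DNAJ, CCT, PDIA and BAG families in the platform annotation, with HYOU1, CALR, CANX, ERO1A, ERO1B, SDF2L1 and TCP1. This gave 32 of the 14884 genes with a symbol, 6 of the endoplasmic reticulum, 19 of the cytosol, 2 of the mitochondrion and 5 others. The symbols were chosen without a measured value, while the 1 probeset kept per symbol was the one with the highest mean over the 9 arrays. The choice of this topic was made with earlier results of these data known. In the first group cells received the solvent DMSO, in the second simvastatin at 5 µM, and in the third simvastatin at 5 µM together with mevalonate at 2 mM. Total RNA was collected after 30 hours and hybridised to 3 one-colour Affymetrix arrays per group. The samples of a group are called independent in the design text, and separate cultures are not mentioned there, so the p-values measure the spread between these samples, which may be technical. All 9 arrays come from 1 cell line.

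Chaperones help proteins fold and keep them from aggregating. HSP70 proteins, encoded by the HSPA genes, bind unfolded stretches and release them in a cycle driven by ATP, which nucleotide exchange factors such as HSP110 and BAG proteins speed up, while small heat shock proteins (HSPB) hold clients without ATP. In the endoplasmic reticulum, folding is coupled to glycosylation, which the lectin chaperones CALR and CANX read, and to disulfide bond formation, which the ERO1 oxidases drive. The unfolded protein response controls the chaperones of the endoplasmic reticulum, and the transcription factor HSF1 those of the cytosol. Simvastatin blocks HMG-CoA reductase, the enzyme that makes mevalonate, and added mevalonate bypasses the block. Mevalonate is also the precursor of dolichol, the lipid carrier for the sugar chains added to proteins in the endoplasmic reticulum.

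Many family members could not be followed. RefSeq lists 102 protein-coding genes that fit the rule, and 28 of them carried a symbol in the annotation used here. These were 11 of 14 HSPA genes, 5 of 6 BAG genes and 4 of 9 genes whose symbol starts with HSPB. The last 4 were HSPB1, HSPB3, HSPB8 and HSPBAP1, which binds small heat shock proteins. Also among the 28 were 2 of the 4 genes of the HSPD, HSPE and HSPH families, with HYOU1, CALR, CANX, ERO1A, ERO1B and SDF2L1. Of 45 DNAJ, 3 HSP90, 5 PDIA and 10 CCT and TCP1 genes, 0 were matched. HSPA5, the HSP70 of the endoplasmic reticulum, and HSP90B1, HSPE1 and HSPA8 are therefore not analysed here. The picture of each compartment rests on the genes named below, and for the mitochondrion on HSPA9 and HSPD1 alone.

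The genes of the endoplasmic reticulum are known for short promoter elements that the unfolded protein response uses, so the 250 bases before the RefSeq start site (GRCh38.p14) were searched on both strands in the 27 chaperone genes with a window in the RefSeq table. The ER stress element, spelled CCAAT, 9 bases of any kind and CCACG, was found in 22 of 27305 windows of all genes (0.0806%). Among the chaperone genes it occurred in CALR, CANX and ERO1B. The related ER stress element II, spelled ATTGG, 1 base of any kind and CCACG, was added after the windows had been read. It was found in 14 of 27305 windows (0.0513%), among them those of SDF2L1 and HYOU1. Of the 10749 windows of genes measured here, 0.093% held the ER stress element and 0.102% element II. The windows of CALR, CANX, ERO1B, SDF2L1 and HYOU1 belong to 5 of the 6 genes of the endoplasmic reticulum. They are printed because genes with the same element differed in the calls given below. Each is given 5′ to 3′ on the strand of its gene, with the element in capitals. An element on the other strand appears as its reverse complement.
HYOU1, chr11:119057206-119057455 (minus strand): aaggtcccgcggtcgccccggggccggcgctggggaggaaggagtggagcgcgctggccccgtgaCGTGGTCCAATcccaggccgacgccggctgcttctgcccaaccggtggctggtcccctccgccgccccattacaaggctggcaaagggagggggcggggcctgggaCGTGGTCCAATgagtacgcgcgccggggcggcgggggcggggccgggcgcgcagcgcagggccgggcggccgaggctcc
SDF2L1, chr22:21642052-21642301 (plus strand): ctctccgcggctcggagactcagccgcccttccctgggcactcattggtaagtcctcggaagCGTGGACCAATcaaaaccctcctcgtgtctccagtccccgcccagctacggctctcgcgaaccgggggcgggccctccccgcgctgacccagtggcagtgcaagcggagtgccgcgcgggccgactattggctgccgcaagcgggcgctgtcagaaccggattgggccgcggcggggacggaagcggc
ERO1B, chr1:236281959-236282208 (minus strand): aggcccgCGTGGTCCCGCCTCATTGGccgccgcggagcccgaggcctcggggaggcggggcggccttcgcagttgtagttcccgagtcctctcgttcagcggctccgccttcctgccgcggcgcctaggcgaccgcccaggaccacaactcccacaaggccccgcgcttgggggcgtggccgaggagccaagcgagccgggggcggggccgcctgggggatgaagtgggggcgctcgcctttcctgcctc
CALR, chr19:12938359-12938608 (plus strand): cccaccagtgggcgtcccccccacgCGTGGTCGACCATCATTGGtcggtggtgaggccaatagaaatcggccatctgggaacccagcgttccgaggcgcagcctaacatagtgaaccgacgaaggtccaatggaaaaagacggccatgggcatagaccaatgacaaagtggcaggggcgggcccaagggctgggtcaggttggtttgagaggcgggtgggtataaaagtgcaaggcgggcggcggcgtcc
CANX, chr5:179698679-179698928 (plus strand): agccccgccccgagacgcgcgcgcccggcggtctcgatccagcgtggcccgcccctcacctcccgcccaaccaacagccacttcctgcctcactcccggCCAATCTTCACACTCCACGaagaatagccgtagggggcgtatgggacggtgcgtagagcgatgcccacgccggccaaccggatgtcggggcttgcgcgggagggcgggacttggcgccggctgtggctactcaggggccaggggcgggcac

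HYOU1 held ER stress element II at 2 places, of which the one farther from the start site shares bases with an unfolded protein response element, spelled TGACGTGG, that 0.667% of all windows hold. SDF2L1 held element II at 1 place. No window of these genes held both the ER stress element and element II. ERO1A, the remaining gene of this compartment, held none of the 3 motifs in its window. The heat shock element, spelled GAA, TTC and GAA with 2 bases of any kind between neighbours, occurred in HSPA6 alone of the 27 windows and in 0.439% of all windows. A core of the amino acid response element, spelled TGATGNAA, occurred in HSPA4L alone and in 3.19% of all windows. Of the windows of genes measured here, 0.772% held the unfolded protein response element, 0.419% the heat shock element and 1.95% the amino acid response element. A match describes these letters only.

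The deposited values are log2 expression values per probeset and array, and a group mean is given with its SD over 3 arrays. Arrays correlated across the 14884 genes at 0.994 to 0.996 within a group and at 0.990 to 0.996 between groups. Of 12 listed sympathetic neuroblast markers, 9 were measured, and all 9 lay above 5.18, the median over all probesets, with means from 8.85 to 12.80. They moved with treatment: 6 of the 9 fell with simvastatin, and the mean over the 9 was 10.33 to 10.35 on the DMSO arrays, 9.92 to 9.94 on the simvastatin arrays and 10.24 to 10.29 on the arrays with mevalonate. The part of this shift in the chaperone results was not tested. Of 6 Schwann and glial markers 4 were measured, with means from 4.65 to 5.80. Of these 4 markers 3 lay above 5.18, and 0 of the 4 changed. The 2 measured blood and endothelial markers of 6 lay below 5.18. In total RNA from a culture, less RNA per cell and fewer cells in a given state cannot be told apart. Of the 32 chaperone genes, 26 had a mean above 5.18, and the 6 below it are poorly determined. A value can recur exactly on several arrays, which was so for 16 of the 32 and for 57.4% of all genes.

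With simvastatin, some chaperone genes of each compartment moved and others did not pass the test. In the endoplasmic reticulum HYOU1, ERO1A and ERO1B rose while the lectin chaperones did not pass the test. In the cytosol HSPA4L and HSPB1 rose and HSPH1 fell, and in the mitochondrion HSPA9 rose. In all, 6 of the 32 genes rose and 1 fell (limma, adjusted p under 0.05 over all genes tested), where 13.4% of all genes were called, 5.98% higher and 7.38% lower. By compartment, 3 of 6 genes rose in the endoplasmic reticulum, 2 of 19 rose and 1 of 19 fell in the cytosol, 1 of 2 rose in the mitochondrion, and 0 of the 5 others changed (0 at an unadjusted p under 0.05). The median log2 change was 0.10 over the 6 genes of the endoplasmic reticulum and -0.03 over the 19 of the cytosol, and 0.01 over all genes. Differences between the compartments were not tested. Groups that did not overlap were seen in 10 of the 32 chaperone genes, against 28.6% of all genes.

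**Figure D1:**
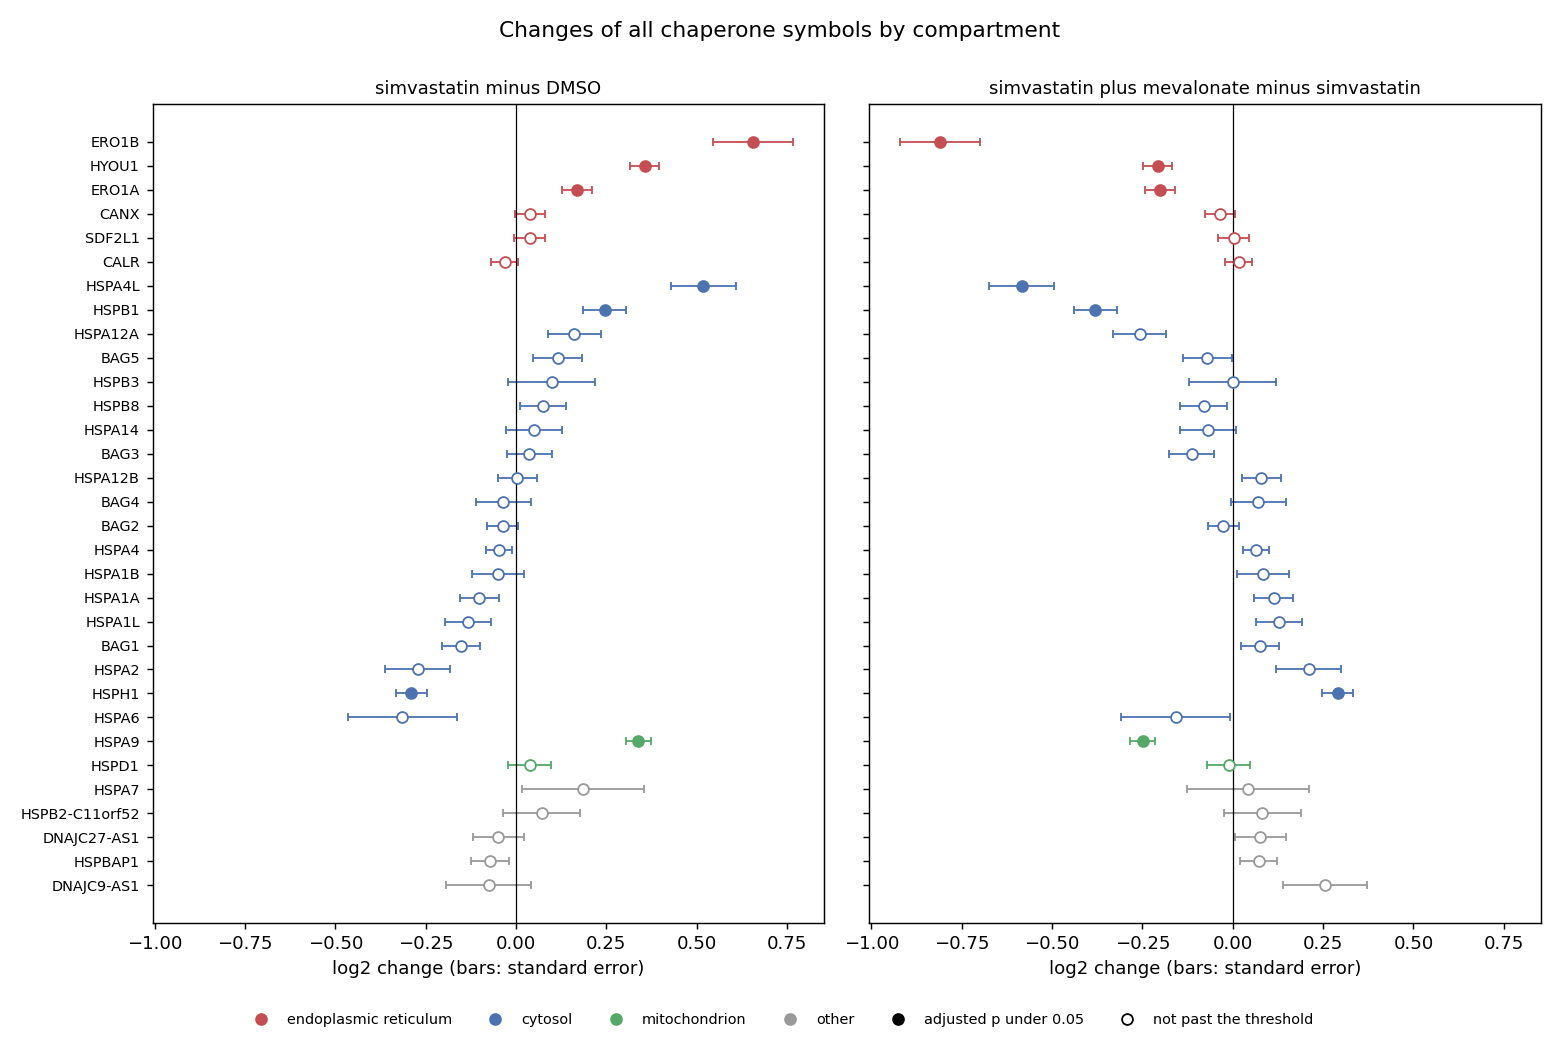
Log2 change of each of the 32 chaperone genes, grouped by compartment, for simvastatin against DMSO (left) and for simvastatin plus mevalonate against simvastatin (right). Points are limma estimates, bars are standard errors and filled points passed an adjusted p of 0.05. On the left ERO1B, HYOU1, ERO1A, HSPA4L, HSPB1 and HSPA9 are filled to the right of 0 and HSPH1 to the left, and both panels use the simvastatin arrays.

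Among the folding enzymes of the endoplasmic reticulum, ERO1B and ERO1A reoxidise protein disulfide isomerase. ERO1B read 5.77, 5.57 and 5.67 with DMSO, 6.53, 6.12 and 6.33 with simvastatin, and 5.53, 5.65 and 5.37 with simvastatin plus mevalonate. All 3 simvastatin arrays lay above the other 6, and the DMSO and mevalonate arrays overlapped. The rise with simvastatin was 1.58-fold (log2 change 0.66 ± 0.11 SE, limma, adjusted p = 0.00552), and with mevalonate added ERO1B fell by 0.81 ± 0.11 (adjusted p = 0.00228).

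ERO1A, the widely expressed relative of ERO1B, read 9.15, 9.19 and 9.21 with DMSO, 9.31, 9.36 and 9.37 with simvastatin, and 9.18, 9.10 and 9.16 with mevalonate added. The simvastatin arrays again lay above all others, by a small margin. Its rise was 1.12-fold (0.17 ± 0.04, limma, adjusted p = 0.0289), and it fell by 0.20 ± 0.04 with mevalonate (adjusted p = 0.0157). The rise did not hold without DMSO replicate 1 (adjusted p = 0.0960), 2 (0.0734) or 3 (0.0557), without simvastatin replicate 2 (0.0777) or 3 (0.0771), or when the third group was left out of the fit (0.0568). The fall with mevalonate did not hold without simvastatin plus mevalonate replicate 2 (0.0542).

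HYOU1, an HSP110-like chaperone and exchange factor for HSP70 in the endoplasmic reticulum, read 9.25, 9.26 and 9.25 with DMSO, 9.62, 9.58 and 9.62 with simvastatin, and 9.43, 9.43 and 9.34 with mevalonate added. The 3 groups did not overlap at any point, and the mevalonate arrays lay between the other groups. HYOU1 rose 1.28-fold with simvastatin (0.36 ± 0.04, limma, adjusted p = 0.000668) and fell by 0.21 ± 0.04 with mevalonate (adjusted p = 0.0120). Its difference between simvastatin plus mevalonate and DMSO was 0.15 ± 0.04 and did not pass the threshold (adjusted p = 0.239, unadjusted 0.00548). The gene has another, dimmer probeset, with means of 5.81, 5.98 and 5.92 in the same order of groups and a change with simvastatin of 0.17 (adjusted p = 0.488). With the mean of its 2 probesets, the calls with simvastatin (0.27, adjusted p = 0.0668) and with mevalonate (-0.14, adjusted p = 0.360) were lost.

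The lectin chaperones stood at nearly the same values in all groups. CALR, calreticulin, read 11.35, 11.31 and 11.30 with DMSO and 11.30, 11.30 and 11.27 with simvastatin, a difference of -0.03 with a 95% confidence interval from -0.12 to 0.06. CANX, calnexin, the membrane-bound counterpart, read 11.32, 11.24 and 11.23 with DMSO and 11.31, 11.29 and 11.30 with simvastatin (0.04, interval -0.06 to 0.13). With mevalonate added, CALR spanned 11.28 to 11.34 and CANX 11.23 to 11.30, inside or beside the ranges of the other groups. SDF2L1, a partner of HSP70 in the endoplasmic reticulum, read 5.94 on 6 of the 9 arrays and 5.83, 5.96 and 5.93 on the rest, so this probeset hardly resolved differences between arrays (simvastatin against DMSO 0.04, interval -0.06 to 0.14).

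The printed windows can be read against these values. ERO1B, which rose, shares the ER stress element with CALR and CANX, which did not pass the test. HYOU1, which rose, shares element II with SDF2L1, which did not pass and whose probeset hardly resolved differences between arrays. ERO1A rose with none of the 3 motifs in its window. The calls of HYOU1 and ERO1A did not hold under every alternative, as given above. A link between these elements and the changes was not tested.

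**Figure D2:**
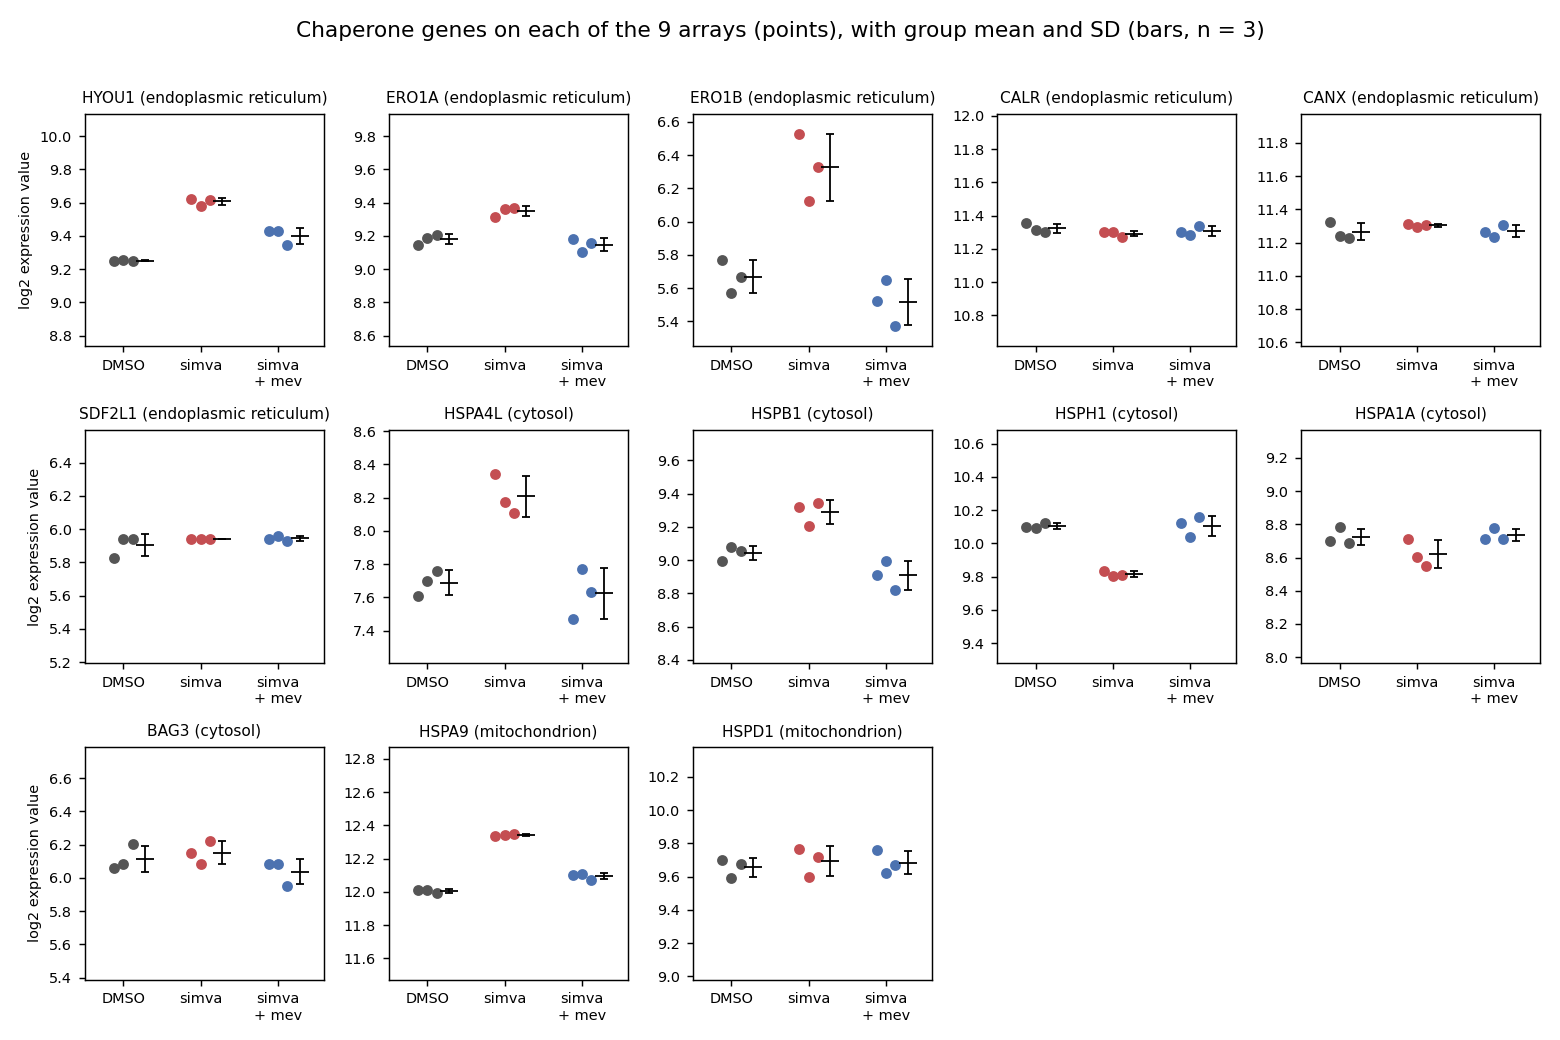
Log2 expression value of 13 chaperone genes on each array (points), with the group mean and SD (n = 3) beside them. Every panel spans the same number of log2 units, and its axis does not start at 0. For ERO1B, HYOU1, ERO1A, HSPA4L, HSPB1 and HSPA9 the 3 simvastatin arrays lie above the other 6, for HSPH1 below them, and for the remaining 6 genes they overlap with at least 1 other group.

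In the cytosol the 3 genes that moved went both ways, and their share of the 19, 15.8%, lay near the 13.4% called among all genes. HSPA4L, an HSP110 protein that acts as exchange factor for HSP70, read 7.61, 7.70 and 7.76 with DMSO, 8.34, 8.17 and 8.11 with simvastatin, and 7.47, 7.77 and 7.63 with mevalonate added. Every simvastatin array lay above the other 6. HSPA4L rose 1.43-fold with simvastatin (0.52 ± 0.09, limma, adjusted p = 0.00607) and fell by 0.58 ± 0.09 with mevalonate (adjusted p = 0.00395). These calls held without any single array.

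HSPH1, which encodes another HSP110 protein, went the other way. It read 10.10, 10.09 and 10.12 with DMSO, 9.83, 9.80 and 9.81 with simvastatin, and 10.12, 10.04 and 10.16 with mevalonate. The simvastatin arrays lay below all others, and the DMSO and mevalonate arrays overlapped. HSPH1 fell by 0.29 ± 0.04 with simvastatin (limma, adjusted p = 0.00255) and rose by 0.29 ± 0.04 with mevalonate (adjusted p = 0.00312), in both cases also without any single array. HSPA4, the remaining cytosolic gene of the HSP110 group, was chosen after its values were seen. Its means were 10.03, 9.99 and 10.05 in the order DMSO, simvastatin and simvastatin plus mevalonate, and its change with simvastatin was -0.05 (interval -0.13 to 0.04, adjusted p = 0.478).

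HSPB1, the small heat shock protein HSP27, read 8.99, 9.08 and 9.06 with DMSO, 9.32, 9.20 and 9.34 with simvastatin, and 8.91, 8.99 and 8.82 with mevalonate added. The simvastatin arrays were highest and the mevalonate arrays lowest, with no overlap between groups. HSPB1 rose 1.19-fold with simvastatin (0.25 ± 0.06, limma, adjusted p = 0.0269) and fell by 0.38 ± 0.06 with mevalonate (adjusted p = 0.00416). The rise did not hold without DMSO replicate 1 (adjusted p = 0.0911), 2 (0.0550) or 3 (0.0682), or without simvastatin replicate 1 (0.0760) or 3 (0.0828). The fall with mevalonate held without any single array. The difference between simvastatin plus mevalonate and DMSO was -0.13 ± 0.06 (adjusted p = 0.455).

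The stress-inducible HSP70 gene HSPA1A and the HSF1 target BAG3, an exchange factor for HSP70 in selective autophagy, are classic markers of the heat shock response. HSPA1A read 8.70, 8.78 and 8.69 with DMSO, 8.71, 8.60 and 8.55 with simvastatin, and 8.71, 8.78 and 8.71 with mevalonate. Its groups overlapped, and the change with simvastatin was -0.10 (interval -0.23 to 0.02, adjusted p = 0.285). BAG3 read 6.06, 6.08 and 6.20 with DMSO, 6.15, 6.08 and 6.22 with simvastatin, and 6.08, 6.08 and 5.95 with mevalonate, with a change of 0.04 with simvastatin (interval -0.10 to 0.18). HSPA1A, HSPA1B and HSPA1L each had 5 probesets. HSPA1A and HSPA1B are nearly identical in sequence, so their signals cannot be separated with certainty, and HSPA6 and HSPA7 are likewise close copies. When each probeset was fitted on its own, a step added after the data had been seen, the 5 probesets of HSPA1A gave changes with simvastatin between -0.10 and -0.04 with none past the threshold, and for HSPA1B between -0.12 and 0.02, likewise.

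The other 14 cytosolic genes did not pass the threshold in any comparison. They were BAG1, BAG2, BAG4 and BAG5, HSPA1B, HSPA1L, HSPA2, HSPA4, HSPA6, HSPA12A, HSPA12B and HSPA14, and the small heat shock genes HSPB3 and HSPB8. Over the 19 cytosolic genes the changes with simvastatin ran from -0.31 for HSPA6 to 0.52 for HSPA4L, and 9 of the 19 lay above 0. HSPB3 and HSPB8, which are best known from muscle and nerve, had means below 5.18 in every group and are not well measured here. The 5 genes outside the 3 compartments were HSPBAP1, which binds small heat shock proteins, the pseudogene HSPA7, the readthrough gene HSPB2-C11orf52 and the antisense genes DNAJC27-AS1 and DNAJC9-AS1. Their changes with simvastatin ran from -0.08 to 0.19, and with mevalonate added from 0.04 to 0.26, with 0 of 5 past the threshold in either (limma, 0 at an unadjusted p under 0.05).

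In the mitochondrion HSPA9, mortalin, is the HSP70 that pulls imported proteins through the inner membrane, and HSPD1 is the chaperonin HSP60 that folds them in the matrix. HSPA9 read 12.01, 12.01 and 11.99 with DMSO, 12.34, 12.34 and 12.35 with simvastatin, and 12.10, 12.11 and 12.07 with mevalonate. The 3 groups did not overlap, with mevalonate arrays between the others but nearer to DMSO. HSPA9 rose 1.26-fold with simvastatin (0.34 ± 0.04, limma, adjusted p = 0.000430), the smallest adjusted p among the 32 chaperone genes, and fell by 0.25 ± 0.04 with mevalonate (adjusted p = 0.00261). Against DMSO it lay 0.09 higher with simvastatin plus mevalonate, a difference that did not pass the threshold (adjusted p = 0.405, unadjusted 0.0320). HSPD1 read 9.70, 9.59 and 9.68 with DMSO, 9.77, 9.60 and 9.72 with simvastatin, and 9.76, 9.62 and 9.67 with mevalonate. Its groups overlapped throughout, and the change with simvastatin was 0.04 (interval -0.10 to 0.18).

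With mevalonate added to simvastatin, HSPH1 rose and HYOU1, ERO1A, ERO1B, HSPA4L, HSPB1 and HSPA9 fell, which is 1 of the 32 chaperone genes higher and 6 lower. Of all genes 11.0% were called in this comparison, 5.31% higher and 5.72% lower. It shares the simvastatin arrays with the comparison above, so the values of each gene are given side by side and not combined. The change between simvastatin plus mevalonate and DMSO is a difference of the means of those groups, while its standard error and p-value also draw on the spread of the simvastatin arrays. There 0 of 32 chaperone genes passed the threshold (limma, 4 at an unadjusted p under 0.05), where 0.0739% of all genes did, 0.0336% higher and 0.0403% lower. The 4 were HYOU1, HSPA9, HSPB1 and HSPA6. HSPA6, a stress-inducible HSP70 named here after its values were seen, lay 0.47 lower on the log2 scale (a change of -0.47, limma, adjusted p = 0.308). Its mean with simvastatin plus mevalonate was 5.19, close to 5.18, the median over all probesets. Groups did not overlap for these 4 genes and for HSPA12A, which is 5 of 32, against 16.5% of all genes. The medians by compartment for mevalonate against simvastatin were -0.12 over 6 genes of the endoplasmic reticulum and 0.00 over 19 of the cytosol.

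Regulators and helpers of the same compartments were then examined from lists of co-chaperones, folding enzymes and stress regulators, of which 43 genes were measured. In the endoplasmic reticulum list 7 of 17 rose with simvastatin and 0 fell, with a median of 0.15. Of all genes 13.4% were called (5.98% higher), with a median of 0.01. The list was written with earlier results of these data known. It has 23 genes, and 17 of them were measured. The sensors of the unfolded protein response were among them: ATF6 rose by 0.53 ± 0.04, ERN1, which encodes IRE1, by 0.44 ± 0.06, and EIF2AK3, which encodes PERK, by 0.41 ± 0.06. XBP1, the transcription factor whose messenger RNA IRE1 splices, read 8.15, 8.08 and 8.22 with DMSO, 8.97, 9.06 and 8.96 with simvastatin and 8.24, 8.35 and 8.14 with mevalonate. It rose 1.80-fold (0.85 ± 0.06, limma, adjusted p = 9.04e-05), and an array of this kind does not tell its spliced form. SEL1L, a scaffold of the ubiquitin ligase for misfolded proteins, rose by 0.33 ± 0.06, and ERP44, which retains ERO1 proteins in the early secretory pathway, by 0.26 ± 0.04. MANF rose as well, by 0.15 ± 0.04 (limma, adjusted p = 0.0330). It read exactly the same value, 6.47, on all 3 DMSO arrays and on simvastatin plus mevalonate replicate 2. The call of MANF was not recomputed under the alternatives. The 10 that did not pass the threshold with simvastatin were ERP29, PPIB, SDF2, SEC63, CRELD2, DERL1, DERL2, DERL3, DDIT3 and ATF4. With mevalonate XBP1 fell by 0.75, EIF2AK3 by 0.57, ATF6 by 0.51 and ERN1 by 0.42. In that comparison 7 of the 17 fell and 0 rose, where 11.0% of all genes were called (5.72% lower). Against DMSO 0 of 17 were called with simvastatin plus mevalonate (limma, 1 at an unadjusted p under 0.05), where the share over all genes was 0.0739%. The falls of ERP44 and SEL1L with mevalonate (adjusted p = 0.0235 and 0.0192) did not hold without simvastatin replicate 2 (0.0669 and 0.0536). That of ERP44 was also lost without simvastatin replicate 3 (0.0655) and simvastatin plus mevalonate replicate 1 (0.0793) or 3 (0.0762), and that of SEL1L without simvastatin replicate 1 (0.0605) and simvastatin plus mevalonate replicate 2 (0.0621).

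Of 15 cytosolic genes measured of 23 listed, 1 rose and 0 fell, with a median of -0.04, where 13.4% of all genes were called (5.98% higher) and their median was 0.01. The gene was HSF1 itself, which read 7.53, 7.46 and 7.55 with DMSO, 7.75, 7.82 and 7.75 with simvastatin, and 7.43, 7.58 and 7.45 with mevalonate (0.26 ± 0.05 with simvastatin, adjusted p = 0.0124, and -0.29 ± 0.05 with mevalonate, adjusted p = 0.00919, limma). The prefoldin subunits and the HSP90 and HSP70 partners on this list did not pass the threshold.

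Of 11 mitochondrial genes measured of 16 listed, 3 rose and 0 fell, with a median of 0.03, beside 13.4% of all genes called (5.98% higher) and a median of 0.01. ATF5, a transcription factor of the mitochondrial stress response, read 6.72, 6.67 and 6.58 with DMSO, 7.50, 7.35 and 7.57 with simvastatin and 6.84, 6.78 and 6.85 with mevalonate, a rise of 0.82 ± 0.06 with simvastatin (limma, adjusted p = 0.000109). TIMM44, which tethers HSPA9 to the import channel of the inner membrane, read 7.81, 7.77 and 7.79 with DMSO, 8.45, 8.35 and 8.17 with simvastatin and 8.02, 8.03 and 8.01 with mevalonate, a rise of 0.53 ± 0.07 (adjusted p = 0.00118). TRAP1, the HSP90 of the mitochondrion, rose by 0.34 ± 0.06 (adjusted p = 0.00584). For TIMM44 and ATF5, as for HSPA9, the 3 groups did not overlap and the mevalonate arrays lay between the others. Against DMSO 0 of 11 were called with simvastatin plus mevalonate (limma, 3 at an unadjusted p under 0.05), where 0.0739% of all genes were. In that comparison the groups did not overlap for 3 of the 11, TIMM44, ATF5 and SPG7, against 16.5% of all genes. With mevalonate ATF5 fell by 0.65 ± 0.06 (adjusted p = 0.000434) and TIMM44 by 0.30 ± 0.07 (0.0224), while the change of TRAP1 was -0.19 (0.0758). The TIMM44 fall was lost without simvastatin replicate 2 (adjusted p = 0.0689), without simvastatin plus mevalonate replicate 1 (0.0703), 2 (0.0621) or 3 (0.0720), and without the DMSO arrays in the fit (0.0684).

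**Figure D3:**
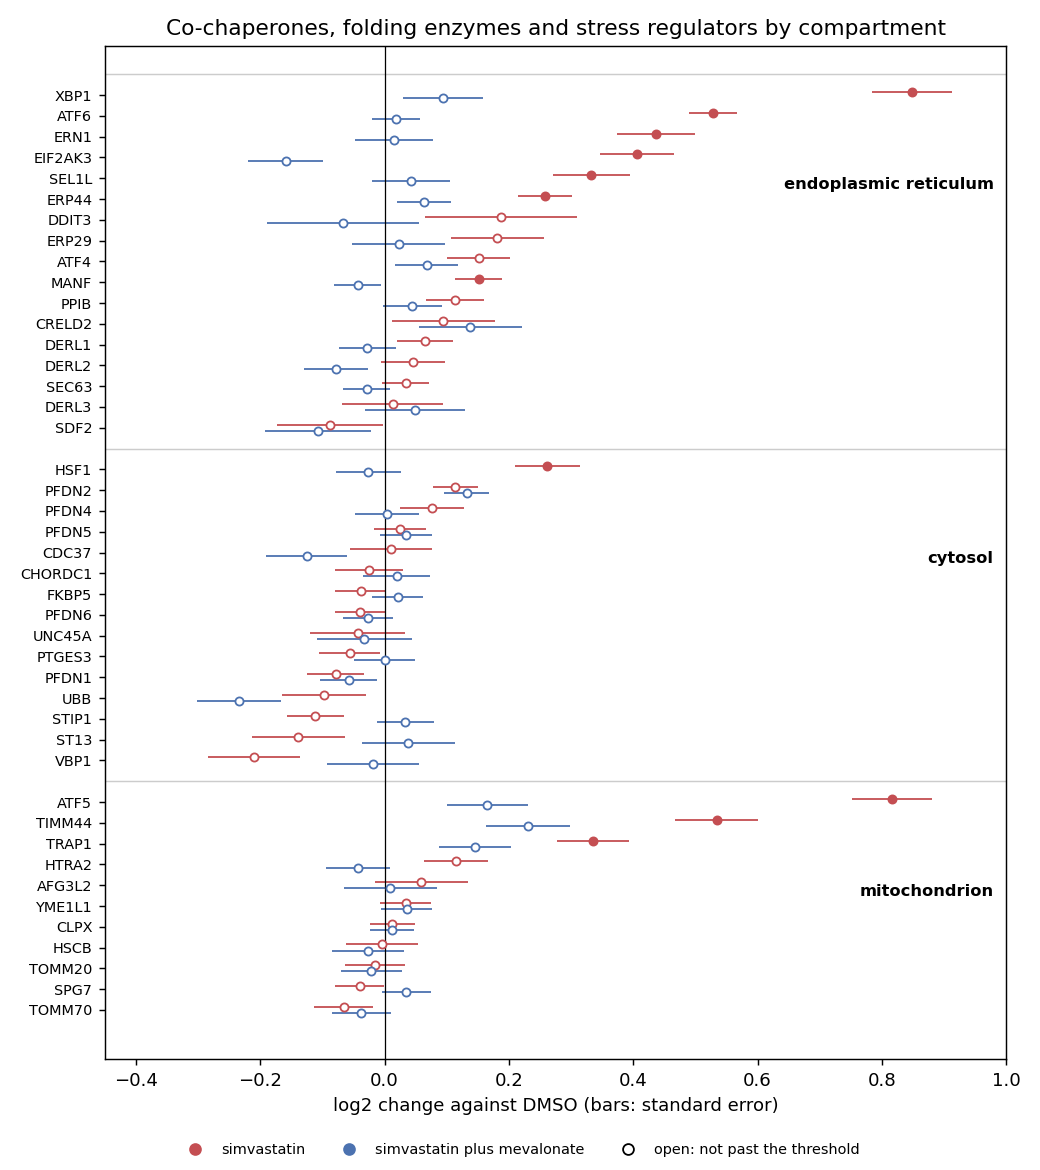
Log2 change against DMSO of 43 genes that regulate or assist chaperones, by compartment, with simvastatin (red) and with simvastatin plus mevalonate (blue). Bars are standard errors and filled points passed an adjusted p of 0.05. Filled red points number 7 in the endoplasmic reticulum, 1 in the cytosol and 3 in the mitochondrion, and no blue point is filled.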

How the data were processed

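Per the labels' protocols, total RNA was labelled with an Affymetrix whole-transcript kit and 1 array was run per sample. The authors deposited 1 log2 value per probeset and array for 53617 probesets. The log2 scale was read from the values, whose array medians were 5.17 to 5.21. GCRMA and HOMER are named in the submitters' processing notes, with neither role nor version, and no build is given. Normalization between arrays hides a change shared by all genes.

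In the annotation used, 16098 probesets carried 1 gene symbol, 0 several and 37519 none. The probeset with the highest mean over 9 arrays stood for a gene. limma 3.58.1 in R 4.3.3 fitted 3 group means to the 9 arrays, and p-values were adjusted by the Benjamini-Hochberg method over 14884 genes. "Rose" and "fell" mean an adjusted p under 0.05. Intervals are 95% limma intervals. The number of arrays limits the precision. The procedure was tested on simulated data. Named with values are the genes past the threshold in any comparison, a set of core genes, and up to 6 genes of each list of regulators that passed with simvastatin. The values of MANF are given in addition. Members and lists were chosen with earlier results of these data known. Alternatives were quantile normalization, the mean over probesets, fits of the compared groups only, a replicate block, limma's trend and robust settings, a filter on dim genes, and leaving out each array.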

Additional observations from a re-analysis of the deposited data

How the results depend on the processing

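Of 1035 recomputed changes of single genes under 15 alternatives, 978 kept their direction and their side of the threshold, 29 lost a call, 5 gained one and 23 changed sign, the last all among changes that had not passed the threshold. Arrays with the same replicate number showed no strong shared deviation over all genes (0 of 9 same-numbered pairs had deviations correlated above 0.1). This cannot tell whether same-numbered samples were handled together. With the replicate block 1576, 1230 and 0 genes were called, in place of 1988, 1642 and 11. The order is simvastatin against DMSO, mevalonate against simvastatin and simvastatin plus mevalonate against DMSO. With the block the calls of ERO1A (adjusted p = 0.0720) and HSPB1 (0.0730) with simvastatin and of ERP44 with mevalonate (0.0660) were lost. For simvastatin plus mevalonate against DMSO, 0 genes were called with only the groups compared, 223 with trend and robust settings, 105 among the genes above the probeset median, and 0 to 12 without any single array. Trend and robust settings also called 1 gene of the endoplasmic reticulum, HYOU1 (adjusted p = 0.0344), and 1 of the mitochondrion, HSPA9 (0.0169). TRAP1 was called lower with mevalonate under quantile normalization (0.0479), trend and robust settings (0.0160) and the filter on dim genes (0.0389). For simvastatin against DMSO the median of the endoplasmic reticulum was 0.12 under quantile normalization, and that of the cytosol ran from -0.047 to 0.0090 without single arrays. For mevalonate against simvastatin the median of the endoplasmic reticulum was -0.085 with the mean over probesets and ran from -0.13 to -0.10 without single arrays, and that of the cytosol was 0.064 among genes above the probeset median and ran from -0.041 to 0.049. For simvastatin plus mevalonate against DMSO these medians ran from -0.023 to 0.0096 and from -0.037 to 0.0071. The cause was not tested. Changes near 0 turned without single arrays. For mevalonate against simvastatin these were HSPD1 (-0.060 to 0.025) and SDF2L1 (-0.0051 to 0.0097, and -0.012 under quantile normalization). For simvastatin plus mevalonate against DMSO they were CALR (-0.031 to 8.1e-05), CANX (-0.014 to 0.033), HSPA1A (-0.011 to 0.041), HSPA4L (-0.14 to 0.012), HSPD1 (-0.011 to 0.058), HSPH1 (-0.024 to 0.035), ATF6 (-0.0040 to 0.039), ERN1 (-0.039 to 0.055), SEL1L (-0.0087 to 0.088) and HSF1 (-0.073 to 0.0025). The planned regrouping of J proteins could not be run because 0 DNAJ protein genes were matched.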
